A study of Rattus norvegicus with 6 samples.

Results

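Small nucleolar RNAs (snoRNAs) and Cajal body RNAs (scaRNAs) were taken as every row of the expression table whose symbol begins with Snor or Scarna, in any case, and whose FPKM (fragments scaled to transcript length and library size) was above 0 in at least 1 library, so the members were chosen by the same values that are described here. Of 33022 loci in the table, 1599 carried such a name and 63 of these were above 0. The 63 members were 29 SNORA rows (box H/ACA), 20 SNORD rows (box C/D), 13 SCARNA rows and 1 SNORND104 row. By its name the SNORND104 row was kept out of the C/D class, so C/D members here are the SNORD rows. They came from 6 rat liver libraries, 1 for each combination of diet and RNA source. Male obesity-prone Sprague Dawley rats ate a control diet (CD) or a Western diet (WD), rich in milk fat and sucrose with added cholesterol, for 2 weeks, then fasted overnight and given their diet again for 1 h before the liver was taken. Besides total liver RNA, RNA was taken from a sucrose gradient loaded with homogenate cleared by centrifugation. The light part of the gradient held RNA carrying at most 3 ribosomes, the heavy part RNA carrying at least 4, and each library was a pool from 3 rats. The labels give the total, light and heavy libraries of a diet the same rat numbers, so fractions were compared within a pool of rats and diets between pools. With 1 library in each group there were no replicates, so every difference is between libraries and no test of diet or fraction was made. Counting intervals cover counting error only, and fragments copied from 1 molecule by PCR are not independent molecules.

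Box C/D snoRNAs guide ribose methylation with the protein fibrillarin, and box H/ACA snoRNAs guide pseudouridylation with dyskerin, both mainly on ribosomal RNA in the nucleolus. The scaRNAs guide the same modifications on spliceosomal RNAs in the Cajal body. Most of these RNAs are cut from the introns of host genes, many of which encode ribosomal proteins or other parts of the translation machinery, and a few mainly serve the cleavage of the ribosomal precursor RNA. They are not messenger RNAs, so their place in a polysome gradient is not a measure of their translation.

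The deposited level of a member depended steeply on its length. Values of 1 locus across the libraries were whole multiples of a common step, so the number of fragments behind each FPKM could be inferred for 62 of the 63 members (a value was called whole within 0.005 of an integer). Of these, 33 were above 0 in at least 2 libraries. The other 29, seen in 1 library, were taken as 1 fragment, or as 2 where the deposited upper bound asked for it, which gave 1 fragment for 26 and 2 fragments for 3. At the depth of the CD total library 1 fragment was worth 1117 FPKM for a transcript of 70 bases, 142 FPKM at 126 bases, 10.8 FPKM at 275 bases and 4.07 FPKM at 416 bases. SNORND104 (chr10:94696646-94696715, Rnor_6.0) thus stood at 2233 FPKM in the CD total library on 2 fragments. SCARNA2 (chr2:211344017-211344432) stood at 53.0 FPKM there on 13 fragments. FPKM was therefore read within a member across libraries, and between members the fragments behind it are given. Fragments carry no correction for length, and the recovery of short RNAs in these libraries was not measured. Differences in fragments between members or classes of unlike length therefore cannot be read as differences in abundance.

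**Figure D1:**
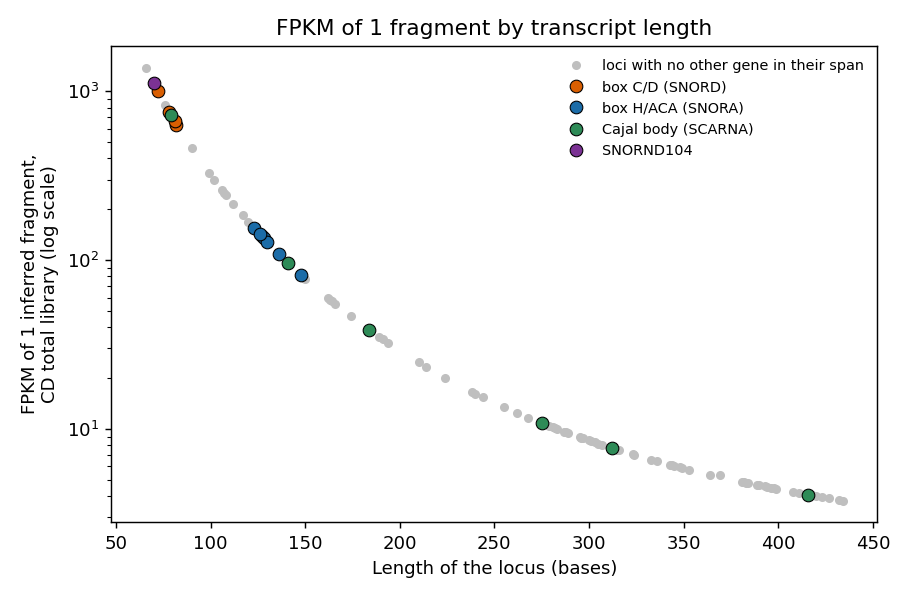
FPKM that 1 inferred fragment was worth in the CD total library (y axis, log scale) against locus length in bases (x axis), for loci with no other gene in their span (grey) and for members among them coloured by class. Grey points were kept only where they followed a falling trend with length. Members are shown only within 2% of that curve, so the fit to 1 curve was set by these choices. The members shown ran from 1117 FPKM at 70 bases to 4.07 FPKM at 416 bases, with the short box C/D members at the steep left end.

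Counted as fragments, the H/ACA members held 578 of the 937 inferred fragments over the 6 libraries, the Cajal body members 311 and the C/D members 46. Of the 62 members with numbers, 44 rested on 5 or fewer fragments in all and 14 on 10 or more. Only 7 members (11.1%) were above 0 in all 6 libraries, while 62.0% of all loci with a symbol that were above 0 anywhere were. Those in 1 library only made up 46.0% of members and 11.3% of such loci. Being above 0 is what chose the members, so these shares describe sparse counts and nothing more. The lowest value that made a row a member was 7.72 FPKM, a single fragment of the SCARNA7 copy on chromosome 19 in the CD total library, and the 1536 rows outside were at 0 in every library. A 0 allows up to 3 fragments.

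The number of members above 0 was 40 in CD total, 28 in WD total, 15 in CD light, 25 in WD light, 20 in CD heavy and 27 in WD heavy. The libraries differed in depth, which was read from the worth of 1 fragment. That worth reflects the scaling Cuffnorm gave each library, and read numbers were not available to check it. Relative to CD heavy, the depth was 2.34 in WD light, 1.57 in CD total, 1.5 in WD total, 1.07 in CD light and 1.02 in WD heavy, so counts of members above 0 are not comparable between libraries without it. With at least 2 fragments required, the numbers were 22, 12, 8, 14, 10 and 16 in the order above. H/ACA members were above 0 in 24 rows in either total library, 12 in either light library and 16 in either heavy library. For the Cajal body members these numbers were 11, 9 and 9, and for the C/D members 13, 8 and 7.

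**Figure D2:**
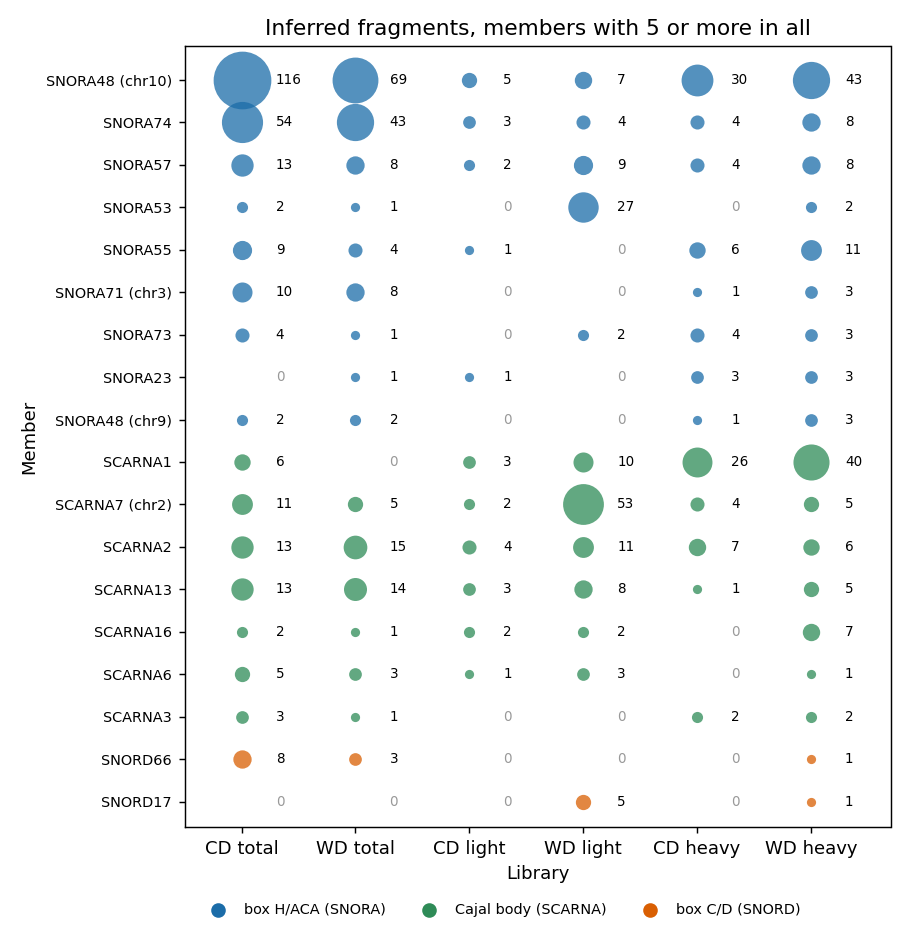
Inferred fragments in each library (columns) for the 18 members with 5 or more in all (rows), with the number printed beside a circle whose area grows with it. SNORA48 on chromosome 10 and SNORA74 had their highest numbers in total RNA, SCARNA1 in heavy RNA, and SCARNA7 and SNORA53 in WD light.

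Among the H/ACA snoRNAs, SNORA48 on chromosome 10 had the most inferred fragments. Its locus in the table (chr10:56271257-56276764) is shared with Eif4a1, the gene of an RNA helicase of translation initiation, and its FPKM per fragment corresponded to a transcript of 143 bases. It was at 10629 FPKM in CD total, 6610 in WD total, 670 in CD light, 432 in WD light, 4319 in CD heavy and 6043 in WD heavy, from 116, 69, 5, 7, 30 and 43 fragments. Both total libraries and both heavy libraries were thus far above both light libraries. Heavy over light was 6.44 (95% counting interval 2.48 to 21.3) on the CD and 14 (6.25 to 36.9) on the WD. Light over total was 0.0631 (0.0201 to 0.151) on the CD and 0.0653 (0.0253 to 0.142) on the WD.

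SNORA74 (chr16:8324036-8350067, inside LOC100362432) came next, with 1709 FPKM in CD total, 1423 in WD total, 139 in CD light, 85.2 in WD light, 199 in CD heavy and 388 in WD heavy, from 54, 43, 3, 4, 4 and 8 fragments. It was highest in both total libraries and below them in all 4 fraction libraries. Light over total was 0.0813 (0.0163 to 0.25) on the CD and 0.0599 (0.0156 to 0.165) on the WD. Heavy over total was 0.116 (0.0306 to 0.316) and 0.273 (0.111 to 0.587). Unlike for SNORA48, the interval of heavy over light included 1 on the CD, at 1.43 (0.242 to 9.78), and lay above it on the WD, at 4.56 (1.22 to 20.7).

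SNORA57 (chr1:225084960-225085107) lies alone in its locus, so no host transcript is annotated over it. It had 13 fragments in CD total, 8 in WD total, 2 in CD light, 9 in WD light, 4 in CD heavy and 8 in WD heavy. Light over total was 0.225 (0.0247 to 0.994) on the CD and 0.724 (0.248 to 2.16) on the WD, and no other interval of this RNA excluded 1. One of the SNORA71 copies on chromosome 3 (chr3:154847869-154847994, also alone) had 10 and 8 fragments in CD and WD total, none in either light library, and 1 and 3 in CD and WD heavy. The counting interval of its light over total was 0 to 0.653 on the CD and 0 to 0.377 on the WD.

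SNORA55, inside the gene of the poly(A)-binding protein Pabpc4, was distributed otherwise, with 1061 FPKM in CD total, 493 in WD total, 172 in CD light, 0 in WD light, 1111 in CD heavy and 1989 in WD heavy. These values came from 9, 4, 1, 0, 6 and 11 fragments, and on the WD the heavy library was higher than total, by a ratio of 4.03 (1.2 to 17.4). On the CD the same ratio was 1.05 (0.307 to 3.30). SNORA23, inside the importin gene Ipo7, had 3 fragments in each heavy library and at most 1 in any other. The SNORA48 copy inside Nop58, a core protein gene of C/D particles, had 2 fragments in each total library, none in either light library, and 1 and 3 in CD and WD heavy.

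Apart from SNORA53 and SNORA73, described with the comparisons they bear on, the remaining H/ACA members with numbers had 4 or fewer fragments in all. SNORA17 had 660 rows in the table, and 6 of them were above 0 with at most 2 fragments in any library. Such near-identical copies can share reads, so the row of a fragment is uncertain. SNORA28 inside Eif5 had 2 fragments in CD total, 1 in WD total and 1 in CD heavy, a median of 74.4 FPKM. SNORA43 lies alone on chromosome 3, and its 242 FPKM in CD total corresponded to 2.05 fragments by its length, so its number was not settled. A row that joins SNORA29 with the protein-coding gene Tcp1, a chaperonin subunit, was above 0 in all 6 libraries at 45.5 to 141 FPKM. Its values cannot be assigned to the snoRNA, and it is 1 of the 4 H/ACA rows above 0 in every library.

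Of the Cajal body members, SCARNA1 had the most fragments in heavy RNA. It shares its locus (chr5:151011319-151029233) with Ppp1r8, a nuclear regulator of protein phosphatase, and its FPKM per fragment corresponded to 164 bases. It was at 342 FPKM in CD total, 0 in WD total, 250 in CD light, 384 in WD light, 2329 in CD heavy and 3498 in WD heavy, from 6, 0, 3, 10, 26 and 40 fragments. Both heavy libraries lay above all 4 others. Heavy over light was 9.31 (2.85 to 48.1) on the CD and 9.12 (4.48 to 20.5) on the WD. Heavy over total was 6.81 (2.74 to 20.2) on the CD. On the WD, with 0 fragments in WD total, its counting interval began at 15.2.

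SCARNA2 and SCARNA13 lie alone in their loci and were above 0 in all 6 libraries. SCARNA2, a C/D-type scaRNA with its own promoter, had 13, 15, 4, 11, 7 and 6 fragments in CD total, WD total, CD light, WD light, CD heavy and WD heavy. The intervals of all its ratios between fractions included 1, as in heavy over light of 1.88 (0.478 to 8.76) on the CD and 1.24 (0.378 to 3.67) on the WD. SCARNA13 (chr6:128749156-128749430) had 13, 14, 3, 8, 1 and 5 fragments in the same order. Heavy over total was 0.121 (0.00284 to 0.805) on the CD and 0.524 (0.148 to 1.54) on the WD. Light over total was 0.338 (0.0617 to 1.23) on the CD and 0.368 (0.134 to 0.939) on the WD, so 2 of these 4 intervals lay below 1 and 2 included it.

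SCARNA7 inside Kpna4, an importin gene, was prominent in 1 library. It had 11 fragments in CD total, 5 in WD total, 2 in CD light, 53 in WD light, 4 in CD heavy and 5 in WD heavy, which is 75.6, 35.9, 20.1, 245, 43.2 and 52.7 FPKM. Only WD light stood above the rest. SCARNA16 (chr10:106022125-106022308, alone) had 7 fragments in WD heavy, none in CD heavy and 1 or 2 in each other library. On the WD its heavy over light was 7.98 (1.52 to 78.7) and its heavy over total 10.3 (1.32 to 463). SCARNA6 inside Atg16l1 had 5 and 3 fragments in CD and WD total, 1 and 3 in CD and WD light, and 0 and 1 in CD and WD heavy. SCARNA3 inside Rfwd2 had 3 and 1 in CD and WD total, none in light RNA and 2 in each heavy library. SCARNA18, a short RNA of 79 bases on chromosome 18, had the highest median level of the class at 607 FPKM, and that rested on 1 fragment in each of 4 libraries.

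The C/D members carried high FPKM on few fragments. SNORD66, inside the initiation factor gene Eif4g1, was the only SNORD row with a median above 0, at 669 FPKM. It was at 6976 FPKM in CD total, 2735 in WD total, 0 in both light libraries, 0 in CD heavy and 1338 in WD heavy, from 8, 3, 0, 0, 0 and 1 fragments. On the CD the counting interval of light over total was 0 to 0.857 and that of heavy over total 0 to 0.920. SNORD17 inside Snx5, the longest C/D member at 239 bases by its FPKM per fragment, had 5 fragments in WD light, 1 in WD heavy and none elsewhere. SNORD15 inside Rps3 had 1 fragment in WD total and 3 in WD light.

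The other 17 SNORD rows had 3 or fewer fragments each over all libraries, 12 of them a single one. By the rule for the highest median levels these included SNORD42, SNORD34, SNORD38, SNORD58, SNORD14, SNORD39 and SNORD56, all with a median of 0. SNORD42 was at 2925 FPKM in CD total on 2 fragments and at 984 FPKM in WD light on 1. SNORD24, SNORD74 and SNORD47 lie side by side on chromosome 13 (chr13:78852741-78855465) with no host annotated, and each had 1 fragment, the first pair in CD total and the last in WD total. A difference between diets or fractions was not detectable at this depth for any of these rows.

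Groups of snoRNAs known for a particular role were mostly at 0, as were all rows with such a name, of which 3.94% were above 0. Of 8 names known from cleavage of the ribosomal precursor, 5 had rows under the rule, and 4 of their 43 rows were above 0. SNORD14 (U14), needed for the small subunit RNA, had 2 fragments in CD total and 1 in WD heavy. SNORA73 (U17), with the same role, lies inside the ribosomal protein gene Rpsa and had 4, 1, 0, 2, 4 and 3 fragments in CD total, WD total, CD light, WD light, CD heavy and WD heavy. The SNORA63 rows inside Eif4a2 had at most 2 fragments in any library. Of 6 names tied to lipid and sterol handling, 5 had rows and 2 of their 25 rows were above 0, SNORA73 and SNORD34. SNORD34 from the Rpl13a introns had 1 fragment in WD total and 1 in CD heavy, while SNORD33, SNORD35 and SNORD60 were listed at 0. All 155 rows of the imprinted clusters (SNORD113, SNORD115, SNORD116, SNORD64 and SNORD107), known from brain, were at 0 in all 6 libraries.

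The sums by class follow, with no test of a difference between classes. The H/ACA members summed to 223 fragments in CD total (95% Poisson interval 195 to 254), 145 in WD total (122 to 171), 12 in CD light (6.20 to 21), 53 in WD light (39.7 to 69.3), 56 in CD heavy (42.3 to 72.7) and 89 in WD heavy (71.5 to 110). Scaled for depth by the worth of 1 fragment, heavy over light was 5.01 (2.66 to 10.3) on the CD and 3.83 (2.69 to 5.49) on the WD. Light over total was 0.0787 (0.0401 to 0.140) on the CD and 0.235 (0.168 to 0.324) on the WD. SNORA53 decided the WD values, since without it heavy over light on the WD was 7.63 (4.87 to 12.3) and light over total 0.116 (0.0734 to 0.177). On the CD, where it had no fragment in light or heavy RNA, the values without it were 5.01 and 0.0794. Heavy over total was 0.395 (0.289 to 0.531) on the CD, while on the WD it was 0.90 (0.684 to 1.18), an interval that includes 1. The order total, heavy, light on the CD therefore exceeded counting error at each step, and on the WD total and heavy RNA did not separate.

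The Cajal body members summed to 57, 39, 16, 91, 41 and 67 fragments in CD total, WD total, CD light, WD light, CD heavy and WD heavy. Scaled in the same way, heavy over light was 2.75 (1.51 to 5.25) on the CD and 1.68 (1.21 to 2.33) on the WD, and heavy over total was 1.13 (0.738 to 1.72) and 2.52 (1.67 to 3.84). Single members decided these values. Without SCARNA1, heavy over light became 1.24 (0.550 to 2.83) on the CD and 0.760 (0.472 to 1.19) on the WD. Without SCARNA7 it was 2.84 (1.5 to 5.68) on the CD and 3.72 (2.44 to 5.73) on the WD. The C/D members, without SNORND104, summed to 18, 7, 2, 12, 2 and 5 fragments in the same order. On the CD light over total was 0.163 (0.0183 to 0.679) and heavy over total 0.175 (0.0196 to 0.729), while all other C/D sums differed by less than counting error. Without SNORD66 both of these intervals included 1.

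**Figure D3:**
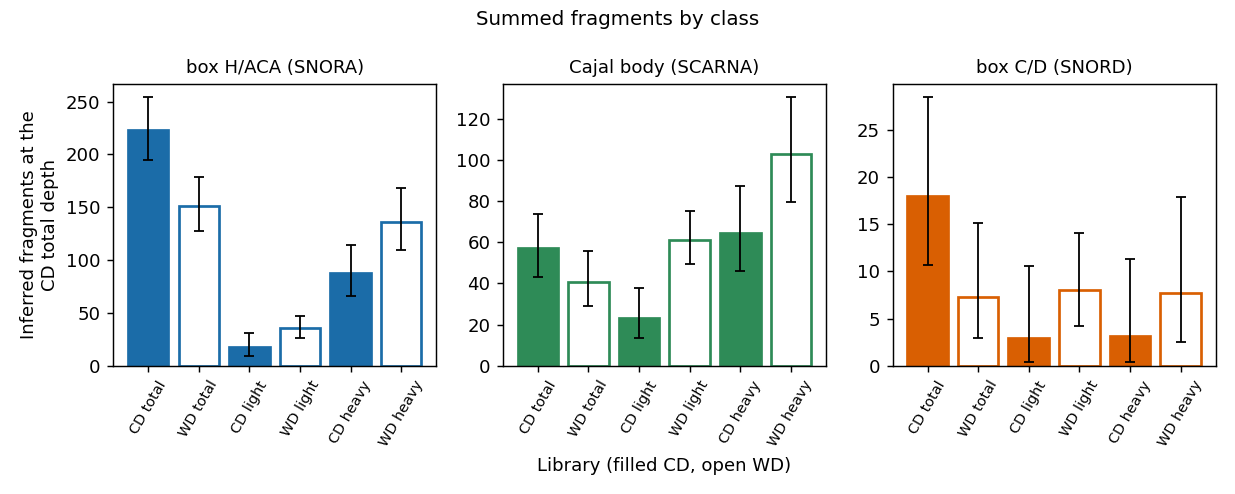
Inferred fragments summed over the members of each class (panels, each with its own y axis from 0), scaled to the depth of the CD total library, in the 6 libraries (x axis, filled bars CD, open bars WD, error bars 95% Poisson intervals). H/ACA sums were highest in total RNA and lowest in light RNA, Cajal body sums were highest in WD heavy, and the C/D sums rested on 2 to 18 fragments a library.

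Few members were above 0 in both libraries of a comparison, and their medians have wide 95% order-statistic intervals over members, which are not replicates. For heavy over light on the CD, 8 of 11 members were at or above 1.5-fold against 33.7% of all loci with a symbol, and 1 was at or below 0.75-fold against 35.3%. Their median log2 ratio was 1.10 (interval 0.10 to 2.69), and over all loci 0.10 (0.1 FPKM added to each value, as for all log2 ratios). On the WD, 7 of 13 were at or above 1.5-fold (35.2% of all loci) and 3 at or below 0.75-fold (34.0%), with a median of 1.02 (-1.13 to 2.99) against 0.12. For light over total, 0 of 13 members on the CD were at or above 1.5-fold (24.2% of all loci) and 10 were at or below 0.75-fold (32.2%), with a median of -1.56 (-2.62 to 0.55) against 0.04. On the WD these were 3 of 12 (26.7%) and 7 of 12 (33.4%), with a median of -0.55 (-1.44 to 0.95) against -0.03. Members listed at 0 in 1 of the libraries stand outside these counts. Of 42 members above 0 in CD total or CD light, 27 were above 0 in CD total alone and 2 in CD light alone. Among all loci above 0 in either of these libraries, 12% and 5.75% fell so. A member with 1 fragment in all is above 0 in 1 library by construction, here and in the diet comparisons.

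For heavy over total, 4 of 16 members on the CD were at or above 1.5-fold (33.1% of all loci) and 6 at or below 0.75-fold (30.7%), a median of -0.29 (-1.30 to 0.65) against 0.07. On the WD the numbers were 8 of 18 (28.1%) and 6 of 18 (33.9%), a median of 0.55 (-0.86 to 1.55) against 0.08. Of these 6 medians, that of heavy over light on the CD had an interval without 0. By fragments, SNORA48 on chromosome 10 was the highest member in both heavy libraries, with 30 and 43, and SCARNA1 came next, with 26 and 40.

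Between diets, the question was whether 2 weeks of WD changed these RNAs in the liver. In total RNA the H/ACA sum was lower on the WD at a ratio of 0.680 (0.548 to 0.842), and SNORA48 on chromosome 10 was at 0.622 (0.455 to 0.845). Without SNORA48 the sum gave 0.743 (0.546 to 1.01), an interval that includes 1. Of 48 members with fragments in either total library, the counting interval lay below 1 for 2, SNORA48 and SCARNA1, above 1 for 0, and included 1 for 46. The share of all loci with such an interval was not computed, so this count is not a result about the members. SCARNA1 had 6 fragments in CD total and none in WD total, a ratio with a counting interval of 0 to 0.888. Cajal body members summed to a ratio of 0.715 (0.463 to 1.09) and C/D members to 0.407 (0.144 to 1.02). The C/D sum leaves out SNORND104, with 2 fragments in CD total and 0 in WD total. With its interval ending so near 1, whether it includes 1 may hang on that choice. All these ratios compare 2 pools of rats, and a smaller share of cells rich in these RNAs cannot be told apart from less RNA in each cell.

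Among members above 0 in both total libraries, 11 of 19 were at or below 0.75-fold on the WD against 22.7% of all loci with a symbol, and 1 was at or above 1.5-fold against 18.2%. The median log2 ratio was -0.67 (-1.07 to 0.06, an interval that includes 0) against 0.05. The lowest were SNORA73 at -1.93, SCARNA3 at -1.52 and SNORD66 at -1.35, with 1, 1 and 3 fragments on the WD and 4, 3 and 8 on the CD. The highest were the SNORA63 row at 1.06, with 2 fragments against 1, SCARNA2 at 0.27 and SCARNA13 at 0.17. Of 49 members above 0 in either total library, 21 were above 0 in CD total alone and 9 in WD total alone, against 8.26% and 8.41% of all loci above 0 in either.

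In heavy RNA the direction was the other way. The H/ACA sum was higher on the WD at 1.55 (1.10 to 2.21), and still so without SNORA48 at 1.73 (1.05 to 2.91). The Cajal body sum was at 1.60 (1.07 to 2.41), and at 1.76 (0.902 to 3.55) without SCARNA1, an interval that includes 1. Of 15 members above 0 in both heavy libraries, 8 were at or above 1.5-fold (20.0% of all loci) and 1 at or below 0.75-fold (25.6%), with a median log2 ratio of 0.59 (-0.03 to 0.97) against -0.03. The highest were SCARNA13 at 2.28, SNORA71 at 1.55 and the SNORA48 copy inside Nop58 at 1.55, each from 1 fragment on the CD and 3 to 5 on the WD. The lowest were SNORA73 at -0.45, SCARNA2 at -0.26 and SCARNA3 at -0.03. Of 32 members above 0 in either heavy library, 12 were above 0 in WD heavy alone and 5 in CD heavy alone, against 9.37% and 8.32% of all loci above 0 in either. Of 31 members with fragments in either heavy library the interval of 1, SCARNA16, excluded a ratio of 1, and the share over all loci was not computed here either. SCARNA16 had 7 fragments in WD heavy and none in CD heavy, with an interval from 1.41 upwards. SNORA48 on chromosome 10 was at 1.4 (0.858 to 2.31) and SCARNA1 at 1.5 (0.894 to 2.56).

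In light RNA 2 members set the difference between diets. SCARNA7 inside Kpna4 had 2 fragments on the CD and 53 on the WD, a ratio of 12.2 (3.21 to 103). SNORA53 (chr7:31816602-31824071), inside the mitochondrial phosphate carrier gene Slc25a3, had 2 fragments in CD total, 1 in WD total, 0 in CD light, 27 in WD light, 0 in CD heavy and 2 in WD heavy. Its counting interval for WD light over CD light began at 3.14. The H/ACA sum in light RNA was 2.03 (1.07 to 4.18) on the WD relative to the CD and 0.996 (0.485 to 2.17) without SNORA53. The Cajal body sum was 2.62 (1.53 to 4.77), and 1.25 (0.661 to 2.49) without SCARNA7. SNORA48 and SNORA74, the leading H/ACA members, had light ratios of 0.644 (0.176 to 2.57) and 0.613 (0.104 to 4.19), both including 1.

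Of 11 members above 0 in both light libraries, 3 were at or above 1.5-fold (22.7% of all loci) and 4 at or below 0.75-fold (30.2%), with a median of 0.29 (-1.12 to 1.05) against -0.03. After SCARNA7 at 3.60, the highest were SNORA57 at 1.05 and SCARNA1 at 0.62. The lowest were SCARNA18 at -1.12, SCARNA16 at -1.12 and SNORA74 at -0.70, from 1 to 4 fragments a library. Of 29 members above 0 in either light library, 14 were above 0 in WD light alone and 4 in CD light alone, against 15.2% and 3.56% of all loci above 0 in either. A few rows of other structured RNAs, named after their values were seen, were also far higher in WD light. The copy of 7SK on chromosome 8, a regulator of transcription elongation, was at 273 FPKM in CD light and 49134 in WD light, while in the other 4 libraries it was at 10.5 to 467. RNaseP_nuc, the RNA of the tRNA-trimming enzyme, was at 331 and 20925 FPKM in CD and WD light. A row that joins signal recognition particle RNA with AC135454.1 was at 88.3 and 65400 FPKM. Counted by rows the rise was not general. Of 20 rows of nuclear small RNAs above 0 in both light libraries, 10 were higher and 10 lower on the WD (median log2 ratio 0.17). Of 14 rows of cytosolic ones 5 were higher and 9 lower (median -0.33). The sums over all rows were higher in WD light, at 116969 and 244120 FPKM in CD and WD light for nuclear and 14538 and 76245 for cytosolic small RNAs. WD light was also the deepest library by the worth of 1 fragment. The ratios of SCARNA7 and SNORA53 are already scaled for depth, and any further part of depth in their values was not tested.

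**Figure D4:**
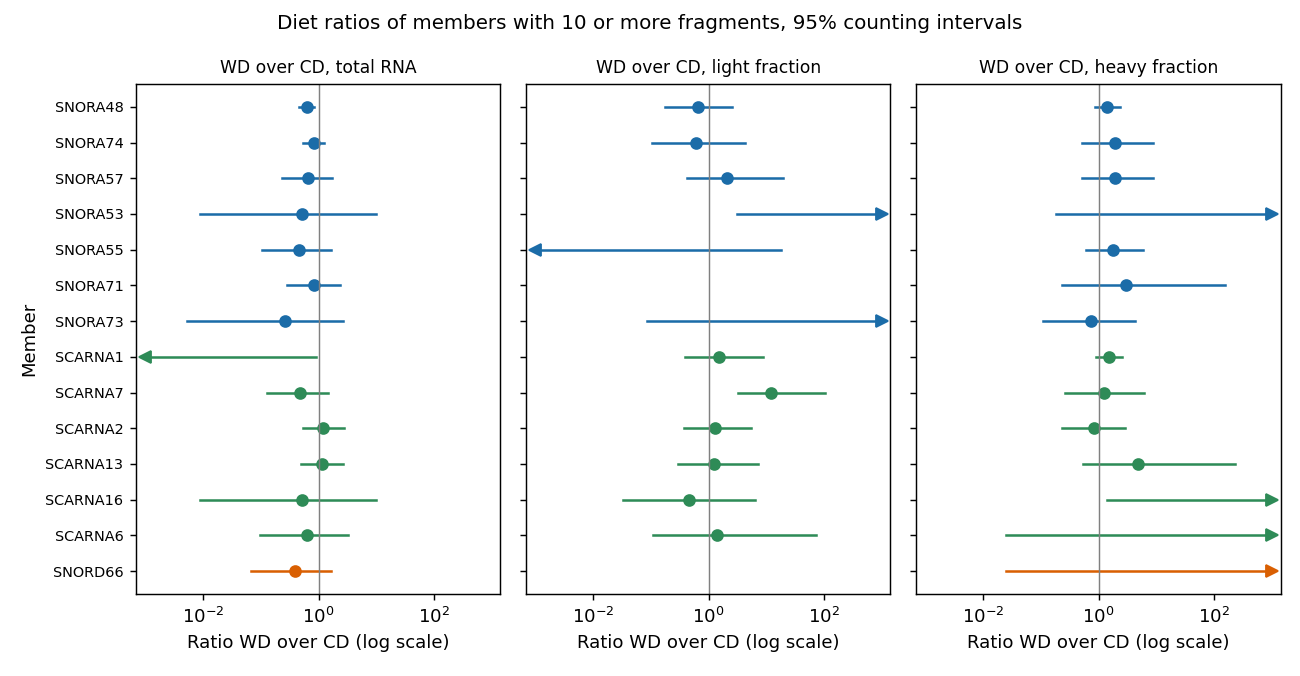
Ratio WD over CD (x axis, log scale) in total, light and heavy RNA (panels) for the 14 members with 10 or more fragments in all (y axis), with 95% counting intervals as lines cut at the edge of the axis. An arrowhead marks a member at 0 in WD (left) or CD (right), and no mark a member at 0 in both. SNORA48 lay below 1 in total RNA, and SCARNA7 and SNORA53 lay above 1 in light RNA.

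Ribosome density, the study's measure of translation, was compared as heavy over light on the WD divided by heavy over light on the CD. For these RNAs it is only a ratio of gradient positions. Above 0 in all 4 fraction libraries were 8 members, of which 3 were at or above 1.5 (27.4% of all loci with a symbol) and 2 at or below 0.75 (33.3%), with a median log2 value of 0.05 against 0.01. SNORA48 on chromosome 10 stood at 2.17, SNORA74 at 3.18 and SCARNA13 at 3.98, the last from 1 fragment in CD heavy. SCARNA7 stood at 0.10, with its 53 fragments in WD light, and SCARNA2 at 0.662. SCARNA1 at 0.980 and SNORA57 at 0.943 had nearly the same heavy over light ratio on both diets.

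Of the 63 members, 44 shared their locus with another gene and 19 lay alone. The hosts included 7 ribosomal protein genes with 8 members (among them Rpl13a, Rps3, Rpl23a and Rpsa) and genes of initiation factors or poly(A)-binding proteins with 6 members (Eif4a1, Eif4a2, Eif4g1, Eif5 and Pabpc4). Others encode nucleolar proteins, namely Nop56, Nop58 and Gnl3. The table gives such rows the span of the whole locus, and reads of an unspliced host transcript over the same bases would count for the member too, since the strand of a read was not used here to separate them.

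The 6 members shown beside their hosts were distributed differently from them. Eif4a1, the host of SNORA48, was at 63.0 FPKM in CD total, 65.3 in WD total, 60.3 in CD light, 64.5 in WD light, 184 in CD heavy and 197 in WD heavy. It was thus level between total and light RNA, where SNORA48 was at 0.0631 of its total level on the CD and 0.0653 on the WD, and nearly level between the diets in total RNA. Ppp1r8, the host of SCARNA1, was at 4.83 to 7.53 FPKM in all 6 libraries. Pabpc4 was at 5.7 and 5.01 FPKM in CD and WD heavy and at 14.3 and 23.2 in CD and WD light, the reverse of SNORA55. LOC100362432 was at 98.3 and 77.3 FPKM in CD and WD total, 181 and 182 in light and 50.4 and 89.5 in heavy RNA, highest where SNORA74 was lowest.

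Kpna4 was at 32.4 FPKM in CD light and 32.7 in WD light, beside the 20.1 and 245 FPKM of SCARNA7. Slc25a3 was at 99.4 FPKM in CD light and 75.0 in WD light, beside the 0 and 273 FPKM of SNORA53. Over the hosts above 0 in both libraries, the median log2 ratio of light over total was 0.20 on the CD (40 hosts) and 0.12 on the WD (42 hosts), and that of WD over CD in total RNA was 0.05 (41 hosts).

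**Figure D5:**
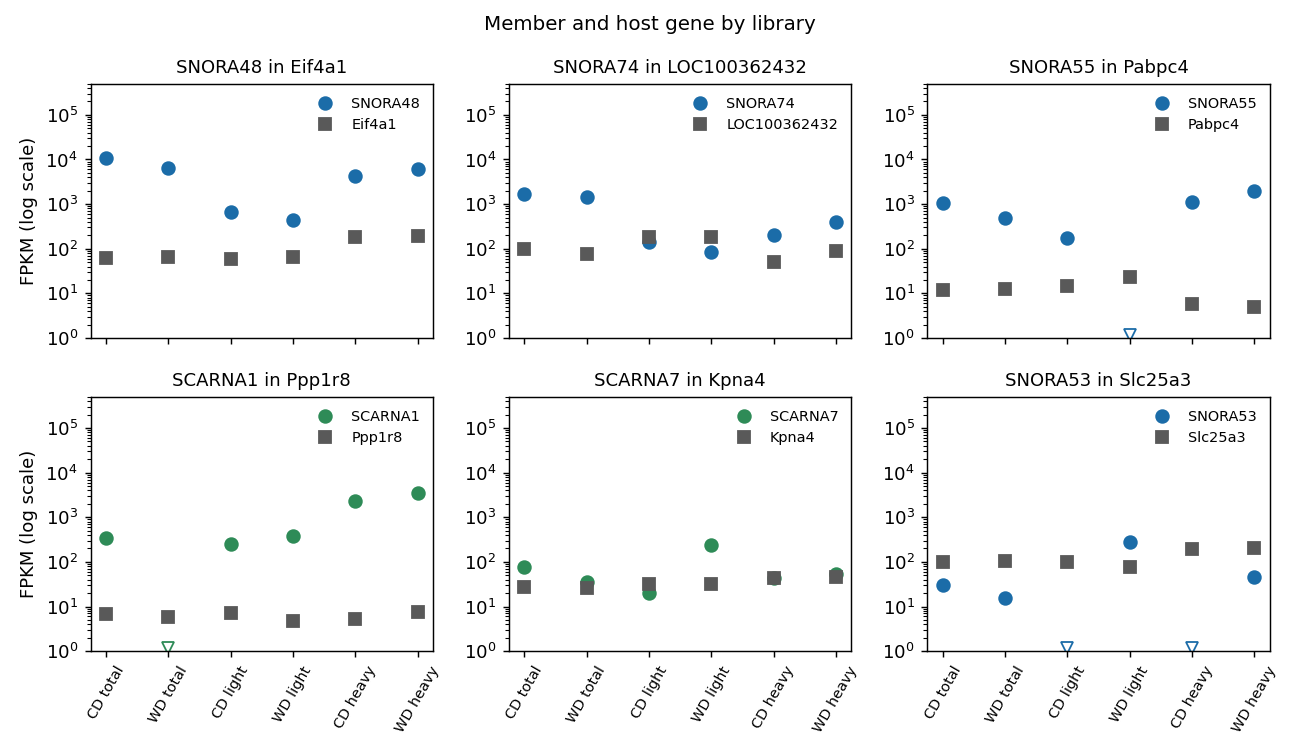
FPKM (y axis, log scale) of 6 members (circles) and of the host gene that shares the locus (squares) in each library (x axis), where an open triangle at the bottom marks a value of 0. Eif4a1 stayed between 60.3 and 65.3 FPKM in total and light RNA while SNORA48 went from 10629 to 432. SCARNA7 and SNORA53 had their highest values in WD light, and their hosts Kpna4 and Slc25a3 had theirs in WD heavy.

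The genes of the protein partners of these RNAs differed widely in level. Of 30 names listed for the particles, their assembly and the Cajal body, 28 were found on 30 rows and 29 of these rows were above 0. In total RNA, 8 of the 23 rows above 0 in both libraries were at or above 1.5-fold on the WD (18.2% of all loci) and 6 at or below 0.75-fold (22.7%), with a median log2 ratio of 0.06. Npm1, an abundant nucleolar chaperone, was highest, at 146 and 143 FPKM in CD and WD total. In light RNA 12 of 24 such rows were higher and 12 lower on the WD, with a median log2 ratio of 0.01. In heavy RNA 12 of 25 were higher and 13 lower, with a median of -0.03. Dkc1, the pseudouridine synthase of H/ACA particles, was at 1.09 FPKM in CD total and 1.71 in WD total, and at 4.65 and 9.20 in CD and WD heavy. Nop58 went the other way in heavy RNA, at 8.21 and 2.67 FPKM in CD and WD heavy. Ncl, or nucleolin, was at 3.76 FPKM in CD light and 35.1 in WD light, but at 3.46 and 1.13 in CD and WD heavy. Of 24 names of long non-coding host genes, 1 was in the table and it was at 0.

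Other small structured RNAs had their own distribution. RNase_MRP, an RNA of ribosomal precursor cleavage, was at 16427 FPKM in CD total, 20879 in WD total, 95172 in CD light, 157738 in WD light, 14906 in CD heavy and 22043 in WD heavy. It was therefore highest in light RNA, where SNORA48 and SNORA74 were lowest. Of 17 rows of other nuclear small RNAs above 0 in CD total and CD light, 12 were at or above 1.5-fold in light RNA (24.2% of all loci) and 3 at or below 0.75-fold (32.2%), with a median log2 ratio of 1.36. For 10 rows of cytosolic small RNAs (signal recognition particle, vault and Y RNA) 9 were at or above 1.5-fold and 1 at or below 0.75-fold, a median of 1.4. Vault RNA was at 537 FPKM in CD total, 187 in WD total, 6411 in CD light, 4453 in WD light, 3091 in CD heavy and 6036 in WD heavy, so it was highest in light RNA on the CD and in heavy RNA on the WD.

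Hepatocyte genes were abundant in every library. All 8 hepatocyte marker genes, albumin among them, were above 0 in all 6, with sums of 40027 to 130696 FPKM. The sums for endothelium were 28.5 to 35.0 and for stellate cells 34.6 to 68.4 FPKM. The 4 Kupffer cell markers summed to 35.2 FPKM in CD total and 53.7 in WD total, 28.7 and 43.9 in CD and WD light, and 64.5 and 92.6 in CD and WD heavy, and all 4 were higher on the WD in total and in heavy RNA. Cholangiocyte markers went from 2.17 FPKM in CD total to 8.99 in WD total, and were at 2.03 and 1.90 in CD and WD light. These sums rest on 2 rows, a row that joins Krt19 with Krt14 and Krt17, and Epcam, with 1 and 6 fragments in CD and WD total. Globin and Alas2, markers of blood, summed to 17.1 to 98.5 FPKM in 5 libraries and to 503 in WD light. In light RNA the 3 globin rows were higher on the WD, while Alas2 was lower, at 19.7 FPKM in CD light and 7.18 in WD light. The part of these cells in the values of the members was not tested.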

How the data were processed

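RNA from 3 rats a group was pooled by the authors, depleted of ribosomal RNA and sequenced. Per the submitters' processing notes, TopHat, Cufflinks and Cuffnorm made the values on Rnor_6.0, and the annotation is not given in the sources used here. The deposited unit is FPKM per locus with its lower and upper bound. From it fragment numbers were inferred as the smallest whole numbers that fitted across libraries (tolerance 0.005). Doubled or tripled numbers were taken where the upper bound matched those better. A bound was matched in at least 1 library for 22 of the 62 members with numbers. For the others, among them SNORA48 on chromosome 10, SNORA74 and SCARNA1, the smallest numbers were kept without this check. Of 13283 loci detected in 2 or more libraries, 80.7% gave such numbers, against 1.66% with noise of 1% added. Lengths were read from the FPKM of 1 fragment, calibrated on 151 loci that were kept for following a falling trend with length. Class sums were planned in FPKM, and the text leads with fragments because short members dominate FPKM. Ratios carry exact binomial (Clopper-Pearson) intervals. The inference was tested on simulated data. With 1 library a group no replicate test was possible, and the 6 libraries went into 9 ratios between libraries. Log2 ratios had 0.1 FPKM added to both values. The fold limits of 1.5 and 0.75 are those the study set for ribosome density, applied here to the WD over the CD.

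The members, lists and limits were chosen with earlier results of these data known. The members named were the highest by median FPKM (8 SNORD, 8 SNORA, 4 SCARNA), those above 0 in all 6 libraries, the 3 highest and 3 lowest diet ratios and the snoRNAs of known role, and further members are named to account for sums. Coordinates are counted from 1. Python 3.11.15 was used with numpy 2.4.6 and pandas 2.3.3 for the values, scipy 1.17.1 for the intervals and matplotlib 3.10.9 for the plots. Sequences are not printed, since none of these RNAs was in the reference tables used here.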

Additional observations from a re-analysis of the deposited data

Results flagged for a closer look

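The diet ratio of the H/ACA sum, in fragments at equal depth, went opposite ways in different RNA sources. It was 0.680 in total RNA, 2.03 in light RNA and 1.55 in heavy RNA (WD over CD), and the difference between sources was not tested. The value in light RNA rests on SNORA53, since it was 0.996 without that member. The value in total RNA had an interval that included 1 without SNORA48.

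For the Cajal body members light over total was 0.411 on the CD and 1.5 on the WD, and this difference was not tested either. The WD value rests on SCARNA7 and was 0.719 (0.441 to 1.18) without it.

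Some snoRNA names fall outside the naming rule. snoU85, a scaRNA, had 15 inferred fragments in CD total, 10 in WD total, 0 in CD light, 8 in WD light, 1 in CD heavy and 2 in WD heavy. snoU89 had 7 in WD light, 1 in CD total and none elsewhere, so it too was prominent in WD light alone. In all, 50 rows had such names, including U3 and U8, and 11 were above 0.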

How the results depend on the processing

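No paired analysis was possible because the values come from no test, and ratios between fractions were each taken within the pool of rats of 1 diet. Of 100 alternatives for median log2 ratios 90 moved them by less than their interval. With zeros kept at 0.1 FPKM (means of at least 10 FPKM, or no filter) the medians became -1.09 and -1.11 for WD over CD in total RNA, 3.60 and 3.60 in light RNA, -10.20 and -10.20 for light over total on the CD, and -9.27 and -8.75 for heavy over total on the CD. These are set by the 0.1 FPKM added to zeros. With symbols on 1 row only, 2 members were left, at 1.71 for light over total on the WD and 1.65 for heavy over total on the CD. With at least 2 fragments asked for, members per library numbered 22, 12, 8, 14, 10 and 16 in the order CD and WD total, light and heavy. Ratios of class sums moved in 29 of 135 alternatives and turned in 7. Sums in fragments with 1 member left out were added after seeing the data. In sums of FPKM instead of fragments, the H/ACA ratios on the WD were 6.64 for heavy over light and 0.149 for light over total, against 3.83 and 0.235 in fragments. Without SNORA48 they were 4.30 and 0.253 in FPKM, 2.28 and 0.389 in fragments, and light over total was 0.106 as a share of the FPKM of loci with a symbol. The H/ACA diet ratio in light RNA was 3.02 without SNORA48 and 0.996 without SNORA53, in fragments. For Cajal body members fragments gave 0.715, 2.62, 1.68, 0.411, 1.5, 1.13 and 2.52 for WD over CD in total and light RNA, heavy over light on the WD, light over total on the CD and WD, and heavy over total on the CD and WD, where FPKM gave 0.220, 1.01, 2.95, 0.767, 3.51, 1.94 and 10.4. Without SCARNA1, FPKM gave 0.904 and 0.684 for WD over CD in light and heavy RNA, 1.21 and 0.916 for heavy over light on the CD and WD, and 0.939 and 2.41 for heavy over total. Fragments without it gave 0.80 and 2.87 for WD over CD in total and light RNA, 1.24 and 0.760 for heavy over light, 0.373 and 1.34 for light over total, and 0.462 and 1.02 for heavy over total. Without SCARNA7 fragments gave 0.773 for WD over CD in total RNA, 0.719 for light over total on the WD, and 1.26 and 2.68 for heavy over total. As a share of FPKM the Cajal body diet ratio in light RNA was 0.788. The C/D ratio of light over total on the WD was 1.93 in fragments without SNORD66. Beyond the zeros and the members left out, the cause was not tested. Depth limits most members: a 0 allows 3 fragments, and 44 of 62 rested on 5 or fewer.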
